A study of Mus musculus with 10 samples.

Results

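C2C12 cells are mouse myoblasts that proliferate in rich serum and fuse into myotubes once serum is lowered. Messenger RNA was sequenced as 5 libraries of cells immediately before induction of differentiation, kept in DMEM with 10% fetal bovine serum, and 5 libraries of differentiating cells, moved to DMEM with 2% horse serum and taken on day 6. All cells were of the same unmodified line, and both media held 1% antibiotics. The present account concerns the 5 day 6 libraries, of 10 in all, which fell into sets of unequal size on the first principal component of their own expression values. Replicates 1 and 2 made up the smaller set, and replicates 3, 4 and 5 the larger. The labels give all 5 the same stage and treatment and do not say whether they came from separate cultures.

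The sets were chosen on the very values compared here, so every difference between them on day 6 is a description and carries no test. Genes with 10 or more counts in at least 2 of the 5 libraries were kept, which left 13550 of 35275. Of these, 411 had exactly 2 libraries at 10 counts. Just inside the limit, Gm9844 had 11, 0, 0, 11 and 1 counts in replicates 1 to 5, and just outside it Itm2a had 9, 23, 9, 5 and 9. Levels are counts per 1000000 of the library total after TMM scaling (trimmed mean of M values), written CPM, and are listed in the order of replicates 1 to 5. A log2 difference is replicates 1 and 2 minus replicates 3 to 5 from the edgeR fit, given with its standard error (SE), so a negative value means a higher level in replicates 3 to 5. A gene is called separated here where the sets did not overlap in CPM and differed by at least 1.5-fold.

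Several programmes that a muscle culture can run at different strength bear on these libraries. When amino acids run short or the endoplasmic reticulum is strained, kinases phosphorylate the translation factor eIF2α, translation of the transcription factor ATF4 rises, and ATF4 with its partners switches on genes for amino acid uptake, amino acid synthesis, transfer RNA charging and, in time, for ending the response. Cholesterol synthesis is governed by SREBP2, whose escort SCAP is held by INSIG proteins in the endoplasmic reticulum membrane while sterols are plentiful. Sarcomere genes are switched on by the myogenic factors and MEF2 once myoblasts leave the cell cycle, while the genes of DNA replication, driven by E2F factors, are shut down.

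Replicates 1 and 2 had higher levels of sarcomere, muscle energy and sterol synthesis genes, and replicates 3 to 5 had higher levels of the ATF4 programme of amino acid stress. On the first component, which held 48.5% of the variance, replicates 1 and 2 lay at -26.7 and -27.4, and replicates 3, 4 and 5 at 19.96, 20.8 and 13.4. The second component held 19.6% and placed replicate 5 at 26.2, apart from replicates 3 and 4 at -16.5 and -5.96. Of the 13550 genes, 637 were separated with the higher level in replicates 1 and 2 (4.7%) and 526 with the higher level in replicates 3 to 5 (3.88%). These percentages are the background for the lists below. Without the fold limit, absence of overlap was common. It held in 2996 genes with the higher level in replicates 1 and 2 and in 3032 the other way. These numbers are the background wherever absence of overlap alone is given. Low genes were separated more often, in 22.4% of the quintile with the lowest mean CPM and 10.5% of the next, against 2.92% to 3.91% of the other 3. The share among genes of like level, weighted by the quintiles of a list's members, is therefore given for lists of low genes. In the fit across all genes, 2586 (19.1%) reached an edgeR adjusted p under 0.05, which is given once as a description. The median log2 difference over all genes was -0.0052, and the median of its absolute size was 0.16. At 2-fold, 256 genes were separated with the higher level in replicates 1 and 2 and 198 with the higher level in replicates 3 to 5. As these are bulk samples, fewer cells of a type and less RNA per cell cannot be told apart in any of the results.

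**Figure D1:**
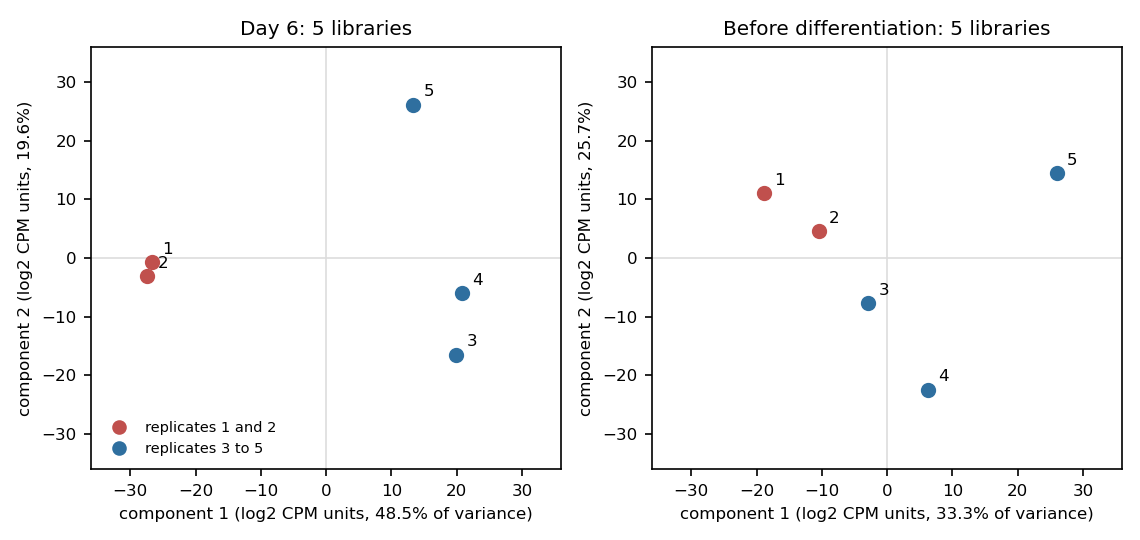
Principal components of log2 CPM within day 6 (left, 5 libraries) and within the libraries before differentiation (right, 5 libraries), each point a library with its replicate number and each axis in log2 CPM units. On day 6 replicates 1 and 2 sit together at -26.7 and -27.4 on component 1, which is the value the sets were chosen on. Before differentiation replicates 1 to 5 lie at -18.9, -10.5, -2.85, 6.21 and 25.99 on component 1, in the order of their numbers.

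The ATF4 programme is described first because its genes differed most. Of 43 listed genes in the table, 41 were tested, 33 were separated with the higher level in replicates 3 to 5, and 0 the other way. The median log2 difference of the list was -1.16, against -0.0052 over all genes, and 40 of the 41 differences were negative. Summed over the list, levels were 3052 and 3267 CPM in replicates 1 and 2 and 6157, 5989 and 5292 CPM in replicates 3, 4 and 5.

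A short response element bound by C/EBP and ATF4 partners was searched as TGATGNAAN on either strand, with N for any base. Listed genes were chosen as members of the ATF4 programme, so the element's share describes the list and not the difference between the sets. The same holds for the elements searched in other lists below. RefSeq promoters of build GRCm38.p6, from 250 bases before to 50 after a gene's start, were at hand for 36 of the 41 genes tested, and 13 of these held the element (36.1%), among them 11 of 28 separated genes. Over all genes with a promoter 1215 of 27025 held it (4.50%), or 3.95% of 32851 promoters. The 27025 include genes that were not tested on day 6, while the lists here and below hold tested genes only. A match is only a stretch of letters and not a site shown to be bound. The promoters of 4 genes of the list are shown 5′ to 3′ with the element in capitals, to let the different copies be seen in place. They are those of Asns (chr6:7693160-7693459, minus strand), Atf3 (chr1:191183284-191183583, minus), Chac1 (chr2:119350992-119351291, plus) and Trib3 (chr2:152344011-152344310, minus).
Asns: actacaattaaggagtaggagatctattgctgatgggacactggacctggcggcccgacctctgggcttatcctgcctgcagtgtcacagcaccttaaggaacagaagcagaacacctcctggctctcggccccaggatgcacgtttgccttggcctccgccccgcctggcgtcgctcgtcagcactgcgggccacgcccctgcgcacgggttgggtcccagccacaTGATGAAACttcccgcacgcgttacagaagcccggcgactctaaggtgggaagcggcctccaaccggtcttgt
Atf3: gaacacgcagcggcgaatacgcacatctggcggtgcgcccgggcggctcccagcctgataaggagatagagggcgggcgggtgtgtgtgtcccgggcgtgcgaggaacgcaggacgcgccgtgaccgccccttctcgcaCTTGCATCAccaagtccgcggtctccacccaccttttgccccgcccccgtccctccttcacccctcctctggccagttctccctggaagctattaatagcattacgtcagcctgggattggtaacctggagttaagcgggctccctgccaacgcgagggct
Chac1: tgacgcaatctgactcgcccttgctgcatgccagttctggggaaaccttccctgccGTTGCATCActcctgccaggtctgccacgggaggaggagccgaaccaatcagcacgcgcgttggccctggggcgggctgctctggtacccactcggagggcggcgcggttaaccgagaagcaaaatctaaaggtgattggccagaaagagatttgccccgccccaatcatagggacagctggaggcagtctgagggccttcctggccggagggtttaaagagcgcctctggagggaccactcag
Trib3: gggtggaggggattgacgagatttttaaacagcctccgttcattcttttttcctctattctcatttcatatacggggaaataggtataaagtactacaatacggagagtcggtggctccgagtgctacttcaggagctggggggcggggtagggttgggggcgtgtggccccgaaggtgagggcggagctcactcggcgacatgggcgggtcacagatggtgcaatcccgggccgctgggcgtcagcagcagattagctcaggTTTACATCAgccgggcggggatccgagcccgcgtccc
In the windows shown, the element of Asns stands before the start and in the written direction, those of Atf3 and Chac1 stand before the start in the opposite direction, and that of Trib3 lies just after the start. All 4 genes were separated with the higher level in replicates 3 to 5.

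Among the 9 transcription factors and regulators of the programme, 6 were separated and 8 did not overlap between the sets. Atf4, the master regulator, was at 334 and 336 against 525, 497 and 458 CPM. Its sets did not overlap, but at a log2 difference of -0.56 (SE 0.060) its messenger stayed just under the 1.5-fold limit. Trib3, a pseudokinase that feeds back on ATF4, was at 8.04 and 9.63 against 83.4, 83.7 and 63.0 CPM. This was the largest difference of any protein-coding gene that reached 10 CPM in its higher set, at 8.70-fold. Atf3, a repressor of the same family, was at 6.86 and 12.2 against 32.9, 33.5 and 23.9 CPM, and Atf5, induced by the same translational switch, at 103 and 131 against 325, 292 and 238 CPM. Ddit3, which encodes the stress factor CHOP, was at 26.03 and 25.9 against 59.4, 51.9 and 42.5 CPM. Log2 differences of the last 3 genes were -1.67 (SE 0.24), -1.28 (SE 0.19) and -0.98 (SE 0.11), with replicate 5 the lowest of the larger set in each. Cebpb and Jdp2, which encode leucine zipper partners, differed by -0.38 (SE 0.12) and -0.26 (SE 0.071) and were not separated.

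Enzymes that make amino acids and carry one-carbon units formed the role with the largest differences, with 12 of 14 separated and a median log2 difference of -1.27. Cth, which makes cysteine from cystathionine, was at 1.47 and 1.48 against 13.2, 12.7 and 11.2 CPM. It was 8.36-fold higher in replicates 3 to 5, with the sets far apart. Asns, asparagine synthetase and a classical ATF4 target, was at 72.0 and 80.5 against 254, 264 and 205 CPM. Its log2 difference was -1.66 (SE 0.096), again with replicate 5 below replicates 3 and 4. All 3 enzymes of the serine pathway lay higher in replicates 3 to 5, with Phgdh at 112 and 125 against 292, 279 and 241 CPM, Psph at 18.7 and 20.7 against 64.1, 59.1 and 52.8 CPM and Psat1 at 243 and 251 against 483, 483 and 420.4 CPM. Each of these was separated, and so were 2 mitochondrial folate enzymes, with Aldh1l2 at 35.4 and 47.0 against 198, 189.9 and 134 CPM and Mthfd2 at 81.4 and 96.9 against 228, 226 and 184 CPM. Pck2, the mitochondrial phosphoenolpyruvate carboxykinase, was at 26.8 and 31.6 against 135, 122 and 107 CPM, a log2 difference of -2.06 (SE 0.092). Got1 and Gpt2, transaminases of aspartate and alanine, were not separated, at -0.025 (SE 0.068) and -0.28 (SE 0.061).

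Amino acid transporters were separated in 7 of 9 cases. Slc7a11, the cystine carrier, was at 2.21 and 3.07 against 9.10, 11.3 and 10.9 CPM. Slc7a5 and Slc3a2, which encode the chains of the large neutral amino acid transporter, were at 143 and 184 against 487, 478 and 390.3 CPM and at 114 and 136 against 344, 339 and 289 CPM. Both chains lay higher in replicates 3 to 5, with log2 differences of -1.46 (SE 0.15) and -1.38 (SE 0.083). The most abundant member of the list, the glutamine carrier Slc38a2, was at 697 and 661 against 686, 649.7 and 713 CPM, where the sets overlapped. Slc43a1 was the only listed gene with a positive difference, 0.25 (SE 0.19), and its sets overlapped as well.

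The 3 secreted factors of the list were all separated. Fgf21, a hormone that muscle releases under mitochondrial or amino acid stress, was at 25.2 and 25.1 against 59.7, 56.8 and 53.6 CPM. Gdf15, a stress cytokine, was at 5.20 and 5.71 against 30.0, 27.2 and 21.6 CPM. Both were higher in each of replicates 3 to 5 than in replicates 1 and 2, with log2 differences of -1.17 (SE 0.086) and -2.27 (SE 0.15). Of the regulators that end the response or save nutrients, Chac1, which degrades glutathione, was at 26.4 and 29.7 against 73.3, 67.8 and 70.0 CPM, and Sesn2, an inhibitor of the mTORC1 kinase, at 18.1 and 20.7 against 44.2, 52.2 and 42.5 CPM. Ppp1r15a, whose product GADD34 reverses eIF2α phosphorylation, differed by -0.75 (SE 0.088). Ddit4, another mTORC1 inhibitor, was not separated, at 17.9 and 21.3 against 17.0, 21.1 and 23.1 CPM.

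Cytosolic aminoacyl-tRNA synthetases, which charge transfer RNAs and include many ATF4 targets, lay on the same side with smaller steps. Of 20 tested, 6 were separated with the higher level in replicates 3 to 5 and 0 the other way, and the median log2 difference was -0.48. Lars, for leucine, differed most and was at 154 and 151 against 315, 307 and 276 CPM. Nars, for asparagine, was the most abundant by CPM, at 264 and 272 against 458, 452 and 413 CPM. The synthetases for histidine and phenylalanine lay on the other side without reaching 1.5-fold, with Hars at 0.17 (SE 0.079) and Farsa at 0.28 (SE 0.071). The list of the unfolded protein response, which has its own eIF2α kinase, PERK, and shares ATF4 with the amino acid branch, was close to even. The separated genes Ddit3, Ppp1r15a and Trib3, of the shared ATF4 arm, were counted in the stress list and not in this one. Its near-even median therefore does not cover them. Of 25 genes, 1 was separated, the median was -0.03, and the separated gene, Ero1l, an oxidase of the endoplasmic reticulum, was at 39.8 and 36.6 against 67.8, 69.5 and 69.3 CPM.

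The day 6 levels were set beside the cells before differentiation, with all 10 libraries scaled together. Of the 41 stress genes, 29 had a mean in replicates 3 to 5 above their mean before differentiation, and 11 had a mean in replicates 1 and 2 above it. Atf4 stood at 426 ± 19.8 CPM (SD, n = 5) before differentiation, between the set means of 341 and 493 CPM on day 6. Trib3 stood at 17.3 ± 0.978 CPM (SD, n = 5), again between 8.99 and 76.7 CPM. Fgf21, by contrast, was nearly silent before differentiation at 0.229 ± 0.224 CPM (SD, n = 5), and both sets were far above it. Atf4 and Trib3 therefore had sets on either side of the earlier level, and Fgf21 had both on the same side.

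**Figure D2:**
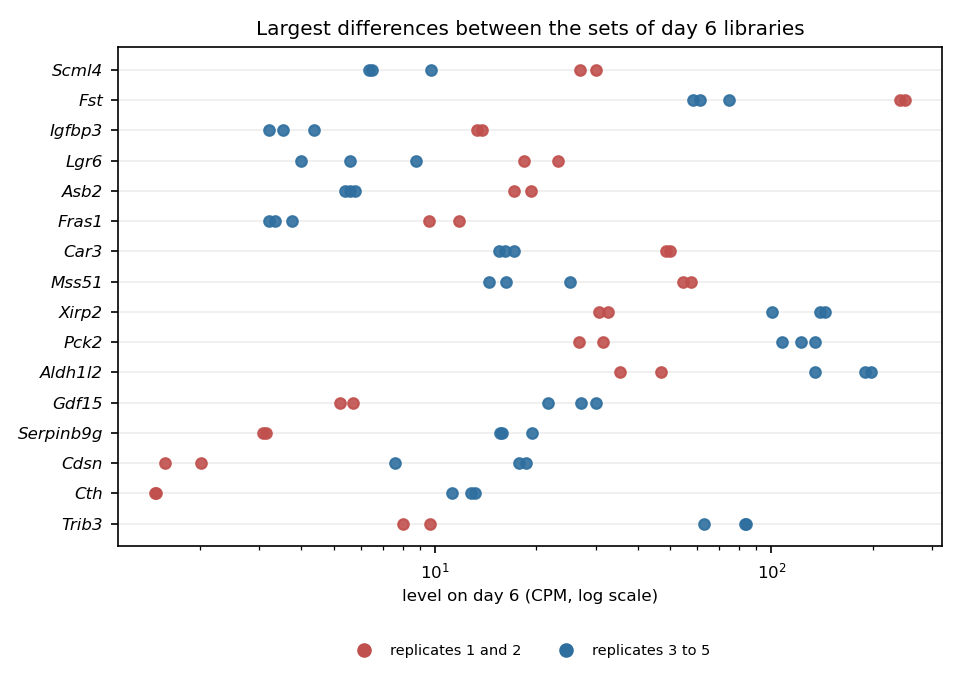
Levels of the 16 protein-coding genes with the largest log2 differences between the sets (8 in each direction, at least 10 CPM in the higher set), in CPM on a log axis, each point a day 6 library. In every row the red points (replicates 1 and 2) and blue points (replicates 3 to 5) are apart, which the choice of genes required; Trib3 runs from 8.04 to 83.7 CPM and Fst from 58.6 to 249 CPM.

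Cholesterol genes lay the other way. All 27 listed genes of sterol synthesis were tested, 9 were separated with the higher level in replicates 1 and 2 and 0 the other way, and the median log2 difference was 0.52. The sets did not overlap in 23 of the 27, against 6028 of 13550 genes in all. Of the 23 sterol genes, 14 differed by less than 1.5-fold. Summed over the list, levels were 3985 and 4047 CPM in replicates 1 and 2 and 2643, 2764 and 3183 CPM in replicates 3, 4 and 5.

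All 8 enzymes of the early mevalonate pathway had positive differences, with a median of 0.53. Hmgcs1, which makes HMG-CoA and was the most abundant of them, was at 404 and 386 against 228, 229 and 287 CPM. Replicates 1 and 2 were the highest, and replicate 5 lay between them and the others. Mvd, which makes isopentenyl diphosphate, differed most of the list, at 64.4 and 58.4 against 29.7, 33.1 and 42.0 CPM and a log2 difference of 0.82 (SE 0.10). Acat2, which encodes a thiolase at the entry of the pathway, was at 96.7 and 109 against 53.2, 56.8 and 77.6 CPM. The 12 enzymes from squalene synthase to cholesterol were likewise all positive and free of overlap, with a median of 0.52. Dhcr7, for the last step through 7-dehydrocholesterol, was at 143 and 161 against 88.9, 98.6 and 99.1 CPM. Nsdhl, a sterol dehydrogenase, was at 113 and 117 against 65.1, 64.4 and 80.8 CPM. Cyp51 and Sqle, which act earlier on lanosterol and squalene, differed by 0.63 (SE 0.10) and 0.47 (SE 0.092).

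Sensing genes were less even. Insig1, itself a target of SREBP2, was at 229 and 240.2 against 121, 134 and 159.8 CPM, with no overlap and a log2 difference of 0.76 (SE 0.085). Srebf2, which encodes SREBP2, was higher in replicates 1 and 2 by only 0.16 (SE 0.057), at 494 and 518 against 437, 479 and 444 CPM. Scap and Insig2, of the same machinery, overlapped between the sets, at -0.14 (SE 0.083) and 0.00090 (SE 0.069). The sterol regulatory element searched as TCACNCCAC on either strand was found in 1 of 19 listed genes with a promoter at hand, Hmgcs1, against 1.44% of all 27025 genes. The Hmgcs1 promoter (chr13:119690101-119690400, plus strand, GRCm38.p6) is shown with the element in capitals as the only copy found among the listed genes by this strict search.
Hmgcs1: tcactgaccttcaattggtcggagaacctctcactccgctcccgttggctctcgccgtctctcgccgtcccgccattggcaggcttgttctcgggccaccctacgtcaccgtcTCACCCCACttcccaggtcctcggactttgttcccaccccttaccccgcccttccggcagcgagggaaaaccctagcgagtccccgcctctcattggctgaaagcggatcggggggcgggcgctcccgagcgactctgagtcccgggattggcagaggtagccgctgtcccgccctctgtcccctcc
Of the 27 sterol genes, 26 had a mean in replicates 1 and 2 above their mean before differentiation and 22 had one in replicates 3 to 5, so for most genes both sets lay above the earlier level by unequal amounts. Hmgcs1 was at 142 ± 7.98 CPM (SD, n = 5) before differentiation and Mvd at 15.95 ± 1.73 CPM (SD, n = 5).

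Fatty acid synthesis, run by the related factor SREBP1, leaned the same way with a median of 0.27 over 16 genes and 1 separated. That gene, the desaturase Scd2, was at 3437 and 3506 against 2109, 2222 and 2479 CPM. Fasn, fatty acid synthase, was at 592 and 666 against 449, 473 and 519 CPM and below 1.5-fold. Among 9 genes of cholesterol efflux, the opposite arm of the balance, the median was 0.03. Nr1h3, which encodes the oxysterol receptor LXRα, was the 1 gene separated, with a log2 difference of -1.01 (SE 0.40) and the higher level in replicates 3 to 5. It was under 5 CPM in its higher set, a level at which a few counts decide a fold. This 1 gene is 11.1% of the efflux list, against 3.74% among genes of like level. Apoe, the lipid carrier with the largest difference among efflux genes of at least 5 CPM, differed by 0.30 (SE 0.12), and Npc2, the most abundant, by -0.16 (SE 0.055).

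**Figure D3:**
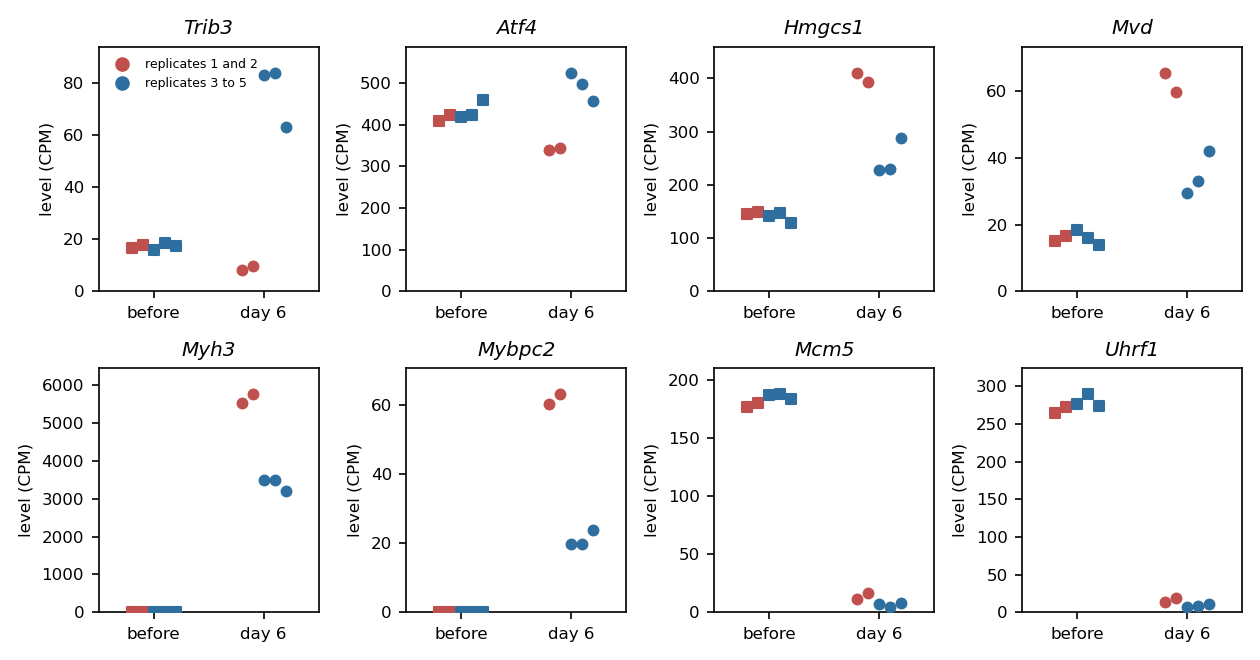
Levels of 8 genes in all 10 libraries scaled together, in CPM from 0, with libraries before differentiation as squares on the left and day 6 libraries as circles on the right of each panel. On these linear axes the 5 libraries before differentiation stay close together in each gene. The scale sets this in part, since Mybpc2 was 0 in all 5 and Myh3 ran from 2.42 to 5.04 CPM. On day 6 replicates 1 and 2 (red) and replicates 3 to 5 (blue) do not overlap. Trib3 and Atf4 are higher in blue and Hmgcs1, Mvd, Myh3, Mybpc2, Mcm5 and Uhrf1 higher in red. The day 6 points of Mcm5 and Uhrf1 lie near the bottom of their panels.

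Of 55 sarcomere genes in the table, 53 were tested, 14 were separated with the higher level in replicates 1 and 2, and 1 with the higher level in replicates 3 to 5. The median log2 difference was 0.34, 46 of 53 were positive, and 42 did not overlap, against 6028 of 13550 genes in all. Listed genes summed to 46289 and 47354 CPM in replicates 1 and 2 and 39175, 39532 and 36454.5 CPM in replicates 3, 4 and 5. Replicate 5 had the lowest sum, where for stress and sterol genes it lay nearest to replicates 1 and 2.

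Myosin heavy chains were separated in 4 of 6 cases. Myh3, the embryonic chain, was at 5436 and 5631 against 3487, 3495 and 3192 CPM. Myh8, the perinatal chain, was at 196 and 239 against 112, 125 and 85.9 CPM. Myh7, the slow chain, was at 242 and 317 against 155, 169 and 144 CPM, and Myh4, a fast adult chain, at 282 and 275 against 151, 167 and 163 CPM. In all 4 the lower of replicates 1 and 2 stood above the highest of the others. Myh1 and Myh2, the other fast chains, overlapped, at 0.019 (SE 0.058) and 0.027 (SE 0.085). These genes share long stretches of sequence and only uniquely mapped reads were counted, so their values are uncertain.

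Of 8 myosin-binding and M-line genes, 3 were separated. Mybpc2, the fast type, was at 59.3 and 61.7 against 19.96, 19.7 and 23.8 CPM, a log2 difference of 1.52 (SE 0.091), and Mybpc1, the slow type, at 36.1 and 39.6 against 17.3, 17.7 and 19.8 CPM. Neither had a count in any library before differentiation. Myl2, the slow regulatory light chain, was at 125 and 123 against 58.0, 61.7 and 63.8 CPM. Obsl1, which links the M-line to other proteins, was at 329.6 and 400.4 against 182, 174 and 199.9 CPM. Tcap, which caps titin at the Z-disc, was at 67.3 and 70.1 against 33.3, 30.8 and 37.0 CPM. Obsl1 had the smallest of these 5 differences, 1.97-fold, and none of the 5 genes had overlapping sets. Titin itself, Ttn, was at 4897 and 5057 against 4627, 4898 and 4303 CPM, and its sets overlapped. Thin filament genes were positive in 16 of 16 cases and separated in 3, among them Tnnt1, slow troponin T, at 741 and 707 against 490.2, 468 and 480.5 CPM. Acta1, skeletal actin, was at 3519.9 and 3942 against 2969, 3159 and 2783 CPM, free of overlap but below 1.5-fold.

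The 5 assembly and repair genes were all free of overlap but went both ways. Smyd1 and Unc45b, which help myosin fold and assemble, lay higher in replicates 1 and 2, at 0.26 (SE 0.065) and 0.48 (SE 0.068), and the other 3 lay higher in replicates 3 to 5. Xirp2, an actin-binding repeat protein that gathers at damaged or growing sarcomeres, was at 32.5 and 30.7 against 139, 145 and 101 CPM. It was 4.05-fold higher in replicates 3 to 5 and the only sarcomere gene separated that way. Its relative Xirp1 was at 205 and 224 against 289, 278 and 249 CPM. Nrap, a scaffold of early myofibrils, was at 129 and 148 against 210.2, 216 and 149.9 CPM, and Csrp3, a LIM protein of the Z-disc named after its values were seen, at 81.4 and 88.0 against 129, 123 and 93.4 CPM. All 4 genes were free of overlap with the higher level in replicates 3 to 5, and the last 3 did not reach 1.5-fold. Ankrd1 and Ankrd2, stretch-responsive partners of titin outside the sarcomere list, the second named after its values were seen, were separated with the higher level in replicates 3 to 5, at 775 and 737 against 1598, 1568 and 1423 CPM and at 35.1 and 37.6 against 97.8, 104 and 74.6 CPM.

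A MEF2 element, searched as CTA and TAG with any 4 bases between them, which reads the same on both strands, was in 6 of 40 sarcomere genes with a promoter at hand (15%) against 4.23% of all 27025 genes. Of 20 genes of muscle energy metabolism, 12 were separated with the higher level in replicates 1 and 2 and 1 the other way, with a median of 0.76, the largest positive median of the 34 lists. Pygm, muscle glycogen phosphorylase, was at 275 and 288 against 135, 128 and 138 CPM, and Mb, myoglobin, at 683 and 769 against 388, 414 and 462 CPM. Ckm, muscle creatine kinase, was at 233 and 254 against 140.2, 159 and 140.5 CPM. Ldhb, the heart type lactate dehydrogenase chain, was at 14.4 and 16.5 against 4.55, 6.13 and 6.803 CPM, a log2 difference of 1.41 (SE 0.16), and Eno3, muscle enolase and the most abundant of the list, at 1386 and 1391 against 949, 927 and 1025 CPM. Cox6a2, the muscle subunit of cytochrome oxidase, was the 1 gene separated the other way, at 43.5 and 48.8 against 76.2, 80.3 and 58.5 CPM.

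Excitation-contraction coupling had 4 of 27 genes separated, all with the higher level in replicates 1 and 2, and a median of 0.31. Atp2a1, the fast calcium pump, was at 975 and 1011 against 571, 576 and 561 CPM, and Chrna1, a chain of the acetylcholine receptor, at 1473 and 1472 against 1304, 1299 and 1244 CPM. The regulators upstream were closer together. Over 22 myogenic regulators and fusion genes the median was 0.10 and 1 was separated, Myf6, which encodes the late factor MRF4. Myod1 was at 168 and 196 against 157, 169.7 and 152 CPM and Myog, myogenin, at 703 and 712 against 867, 841 and 702 CPM, and both overlapped between the sets. Myog lay lower in replicates 1 and 2 than in replicates 3 and 4. Desmin, Des, the most abundant of these, differed by 0.34 (SE 0.056).

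**Figure D4:**
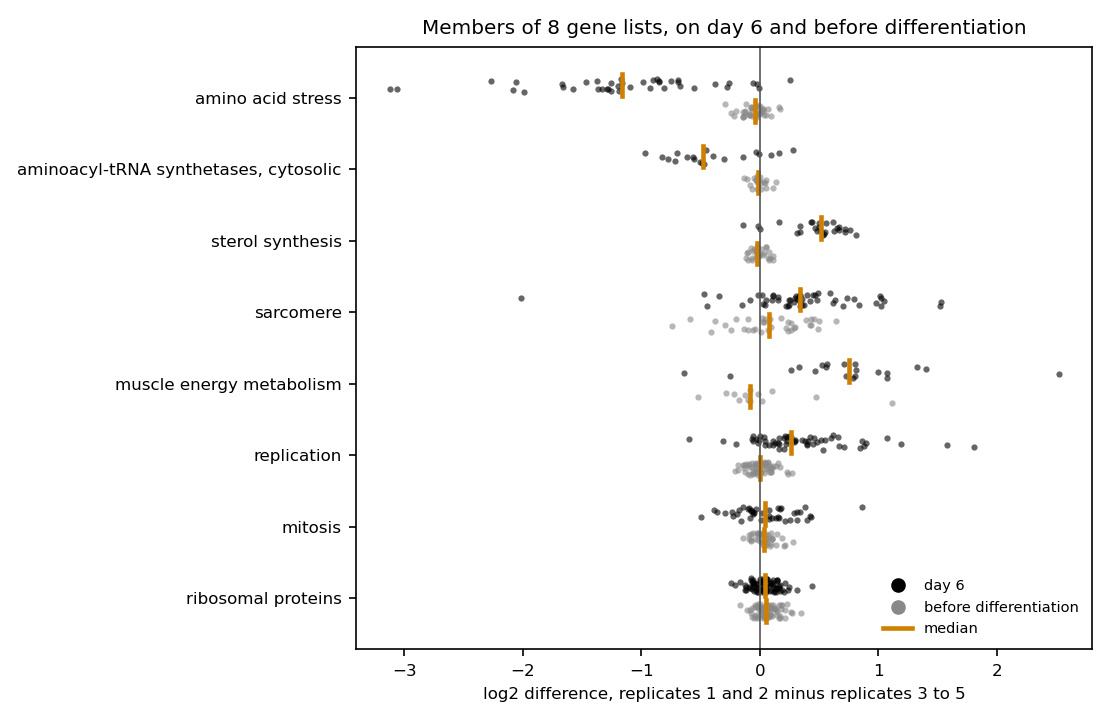
Log2 differences of the members of 8 gene lists, replicates 1 and 2 minus replicates 3 to 5, on day 6 (black) and for the same replicate numbers before differentiation (grey), each point a gene and each bar the list's median. On day 6 the medians are -1.16 for amino acid stress, 0.52 for sterol synthesis, 0.34 for the sarcomere and 0.26 for replication; before differentiation they lie between -0.08 and 0.08 in the 8 lists.

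Replication genes were low in all day 6 libraries and lay higher in replicates 1 and 2. Of 58 in the table, 57 were tested, 13 were separated with the higher level in replicates 1 and 2 and 1, Orc1, the other way, and the median log2 difference was 0.26. The 13 are 22.8% of the list, against 5.1% among genes of like level. Summed levels were 1035 and 1115 CPM in replicates 1 and 2 and 867, 918 and 938 CPM in replicates 3, 4 and 5. In 56 of the 57 genes both set means were under the mean before differentiation, and the exception was the E2F factor gene E2f2. Mcm5, a subunit of the replicative helicase, was at 11.2 and 16.6 against 7.22, 4.25 and 8.28 CPM, and stood at 183 ± 4.54 CPM (SD, n = 5) before differentiation.

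Origin licensing held 3 separated genes with the higher level in replicates 1 and 2 among 12. Mcm3, another helicase subunit, was at 17.9 and 24.9 against 11.6, 14.1 and 14.6 CPM. Cdc6, which loads the helicase, was at 2.4999 and 2.59 against 0.667, 0.607 and 0.899 CPM, levels at which a library holds few counts. Of the genes that start synthesis at origins, Cdc45 was at 7.30 and 7.99 against 3.52, 5.52 and 4.94 CPM and Clspn, a checkpoint mediator, at 4.51 and 7.35 against 2.91, 2.43 and 4.43 CPM. Replicates 1 and 2 were above the others in each, though by little between Clspn in replicates 1 and 5. Polymerase, primase and clamp genes had 1 separated of 19 and a median of 0.21. Nucleotide supply had 0 of 6, and its ribonucleotide reductase genes Rrm2 and Rrm1, the most abundant of the list, differed by 0.20 (SE 0.062) and 0.17 (SE 0.070).

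Chromatin and uracil repair genes had the largest median of the 6 roles, 0.88. Chaf1b, a chain of the histone chaperone CAF-1, was at 4.66 and 7.62 against 1.82, 2.00 and 2.31 CPM, and Uhrf1, which maintains DNA methylation, at 13.1 and 18.5 against 6.73, 8.13 and 10.9 CPM. Replicate 2 was the highest library in both. Cyclin E genes were also separated, with Ccne1 at 4.90 and 4.71 against 2.55, 2.24 and 2.95 CPM. An E2F element searched as TTGGCGC or TTCCCGC on either strand was found in 25 of 46 replication genes with a promoter at hand (54.3%) against 7.79% of all 27025 genes. Mitosis genes were close to even. Over 42 genes the median was 0.05 and 1 was separated, Mybl2, with the higher level in replicates 1 and 2. Top2a, the most abundant, was at 38.4 and 51.5 against 36.3, 44.2 and 47.4 CPM, and Ccnb2, cyclin B2, at 4.12 and 7.35 against 6.37, 8.55 and 9.24 CPM, both with overlap. Replicates 1 and 3 were the lowest in Top2a, which is not the order of the sets.

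Replication-dependent histones lay opposite to replication. Of the 68 listed and counted genes, 15 were tested, 6 were separated with the higher level in replicates 3 to 5 and 0 the other way, and the median was -0.42. The 6 are 40% of those tested, against 7.66% among genes of like level. Of the 15, 12 had a mean in replicates 1 and 2 above their mean before differentiation, and 14 had one in replicates 3 to 5. The counts of these 15 thus did not follow those of the replication genes between the stages. The 15 were picked by their day 6 counts, while 31 listed genes passed the same filter before differentiation. The comparison therefore does not cover the list. How much of the histone RNA these libraries captured was not tested. Hist1h1c, a linker histone and the most abundant, was at 112 and 113 against 152, 154 and 143 CPM and only 12.2 ± 1.60 CPM (SD, n = 5) before differentiation. Hist2h2bb was at 3.04 and 2.27 against 5.52, 4.67 and 5.52 CPM. Histone genes have many near-identical copies, so their values are uncertain.

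The 8 protein-coding genes with the largest positive differences included several of muscle. Fst, follistatin, which binds and blocks myostatin and activin, was at 241 and 249 against 61.2, 58.6 and 75.0 CPM, a log2 difference of 1.92 (SE 0.074) and 3.78-fold higher in replicates 1 and 2. Scml4, a Polycomb-related gene, was at 27.0 and 30.1 against 6.49, 6.37 and 9.69 CPM. Asb2, a ubiquitin ligase adaptor of muscle, was at 17.2 and 19.3 against 5.40, 5.76 and 5.58 CPM, and Mss51, a mitochondrial protein of fast muscle, at 57.5 and 54.8 against 16.2, 14.5 and 25.1 CPM. Car3, carbonic anhydrase of slow muscle, was at 48.7 and 50.05 against 15.5, 17.1 and 16.1 CPM. Each of these 5 genes was free of overlap, and replicate 5 was the nearest to replicates 1 and 2 in Fst, Scml4 and Mss51. Igfbp3, a binding protein for insulin-like growth factors, was at 13.3 and 13.8 against 3.21, 4.37 and 3.53 CPM, and Igf1 itself at 47.3 and 41.4 against 19.5, 19.7 and 20.2 CPM. Lgr6, a receptor for R-spondins, was at 18.4 and 23.2 against 5.58, 4.004 and 8.79 CPM and stood at 94.7 ± 3.04 CPM (SD, n = 5) before differentiation. Fras1, of the extracellular matrix of epithelia, was at 9.56 and 11.7 against 3.76, 3.22 and 3.34 CPM.

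Outside the stress list, 3 of the 8 largest differences toward replicates 3 to 5 belonged to other genes. Besides Xirp2 they were Cdsn, corneodesmosin, at 1.57 and 2.01 against 17.7, 18.6 and 7.57 CPM, and Serpinb9g, a serine protease inhibitor, at 3.14 and 3.07 against 19.4, 15.8 and 15.6 CPM. In Cdsn replicate 5 lay between the sets of the other 4 libraries. Serpinb9g has near-identical relatives and its counts are uncertain. Bcat1, which starts the breakdown of branched amino acids and was named after its values were seen, was at 9.61 and 12.6 against 39.9, 41.4 and 36.3 CPM.

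Of 39 extracellular matrix genes, 4 were separated with the higher level in replicates 3 to 5 and 1 the other way, with a median of -0.23. Fn1, fibronectin, was at 7916 and 8399 against 14142, 14133 and 13499.5 CPM, and Lum, the proteoglycan lumican, at 24.1 and 17.8 against 8.37, 8.68 and 9.76 CPM. These are opposite directions within a single list. Of 20 Notch and reserve cell genes, 5 were separated with the higher level in replicates 1 and 2, among them the ligand Dll1 and the targets Heyl and Hey1, while Cd34, a marker of quiescent muscle stem cells and the 1 gene separated the other way, was at 22.4 and 25.9 against 59.2, 58.4 and 49.9 CPM. Cdkn1c, a cell cycle inhibitor, was at 6.18 and 6.56 against 1.82, 1.40 and 1.73 CPM, and Notch2 differed by -0.23 (SE 0.056). Nuclear genes of the respiratory chain were positive in 36 of 36 cases with a median of 0.27, yet 0 reached 1.5-fold. Atp5b, the most abundant, was at 1591 and 1616 against 1216, 1245 and 1229 CPM, and Atp5a1, with the largest difference, at 684 and 689 against 452, 457 and 477 CPM.

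Of 32 glycolysis and hypoxia genes, 5 were separated with the higher level in replicates 1 and 2 and 1 the other way, with Pfkfb3 at 9.51 and 9.42 against 5.22, 4.43 and 6.67 CPM and Gapdh differing by 0.34 (SE 0.058). Of 30 interferon response genes, 5 were separated with the higher level in replicates 3 to 5, each under 5 CPM in its higher set (16.7%, against 5.19% among genes of like level), while Parp14 and B2m, which the naming rule picked, differed by -0.53 (SE 0.20) and -0.14 (SE 0.058). Of 19 circadian genes, 3 were separated with the higher level in replicates 3 to 5 and 1 the other way, with Ciart at 3.97 and 3.86 against 9.34, 9.40 and 6.803 CPM and Tef at 0.16 (SE 0.056). Separated targets of SRF and YAP numbered 3 higher in replicates 1 and 2 and 2 higher in replicates 3 to 5, with Ankrd1 at -1.02 (SE 0.061) and Myh9 at -0.25 (SE 0.059), and separated immediate early genes 3 and 1, with Myc at 16.2 and 18.3 against 32.4, 28.4 and 24.3 CPM and Klf6 at -0.30 (SE 0.060). Lysosome and autophagy genes had a median of -0.11, with 27 of 39 negative. The 2 separated genes lay higher in replicates 1 and 2, Tfeb, a master regulator of lysosomes, at 27.8 and 31.7 against 18.1, 15.7 and 19.5 CPM, and Rragd. Lamp1, the most abundant of that list, differed by -0.11 (SE 0.057).

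Separated genes numbered 1 of 27 for Nrf2 targets (Gpx3, 0.82 (SE 0.069), and Fth1 at 0.24 (SE 0.056)), 1 of 20 for p53 targets (Perp, with Gadd45a at -0.44 (SE 0.074) and Cdkn1a at 0.23 (SE 0.057)) and 2 of 19 for FoxO targets (Igf1, and Arrdc3 the other way, with Igfbp5 at -0.13 (SE 0.058)). They numbered 0 of 20 for heat shock (Hspa8 0.40 (SE 0.055), Hsp90ab1 0.16 (SE 0.057)), 0 of 19 for NF-kB targets (Cx3cl1 0.47 (SE 0.11), Csf1 -0.0011 (SE 0.062)), 0 of 12 for mitochondrially encoded genes (mt-Co3 0.49 (SE 0.097), mt-Co1 0.097 (SE 0.063)) and 0 of 79 for ribosomal proteins (Rps29 0.44 (SE 0.13), Rplp0 -0.089 (SE 0.055)). Canx, the most abundant unfolded protein response gene, differed by -0.060 (SE 0.055). In total 78 of the 637 and 72 of the 526 separated genes were in any list. So were only 843 of the 13550 genes tested, so most genes, separated or not, belonged to none of them. Noncoding genes made up 147 of the 1163, and their share of all genes tested is not given here. H19, an imprinted RNA of muscle named after its values were seen, was at 7748 and 8499 against 4969.6, 5187 and 5002 CPM.

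**Figure D5:**
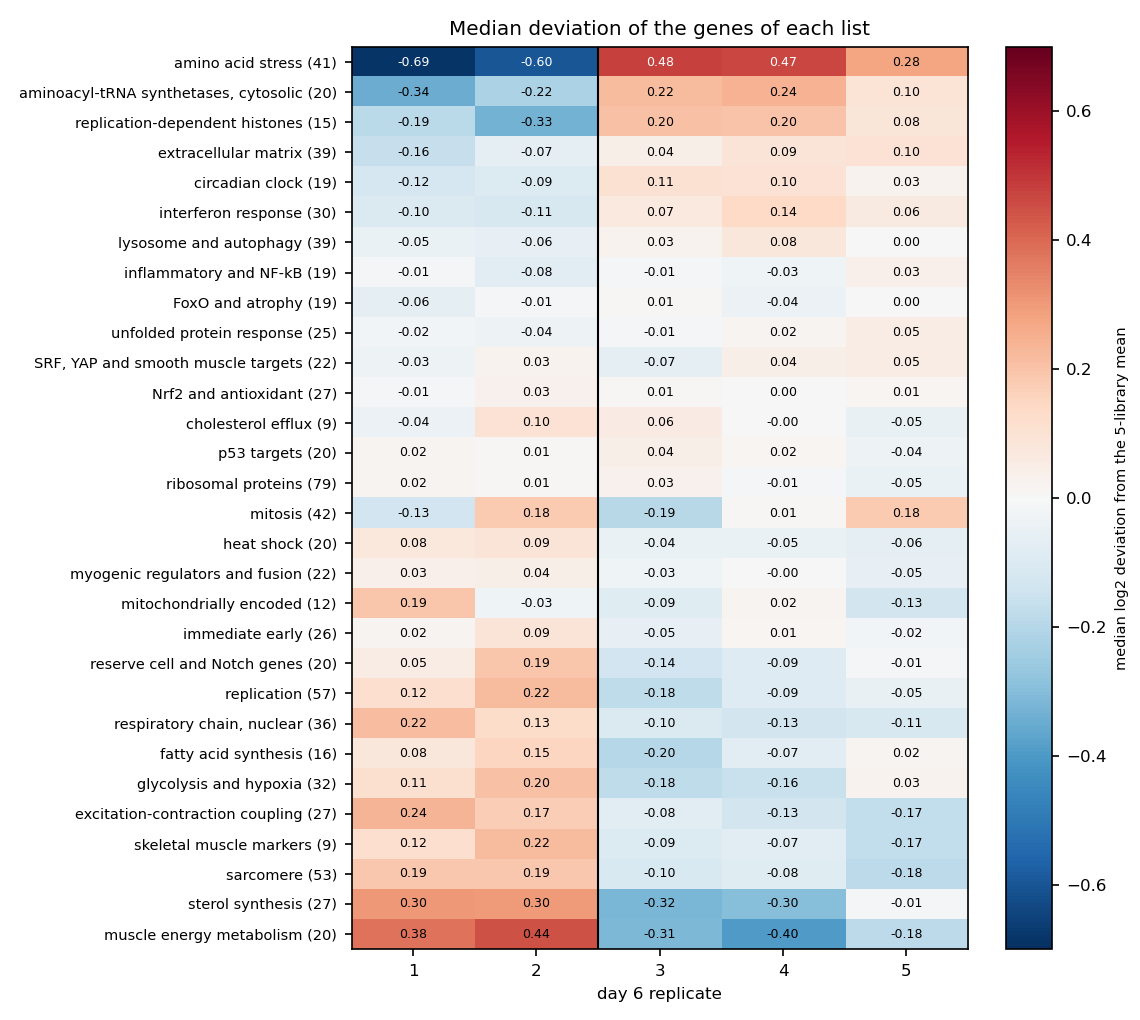
Median over each list's genes of the log2 deviation from the mean of the 5 day 6 libraries, for the lists with at least 9 genes tested (number in parentheses), in replicates 1 to 5 from left to right of each row; red is above and blue below the mean. Amino acid stress runs from -0.69 in replicate 1 to 0.48 in replicate 3, and replicate 5 is nearer 0 than replicates 3 and 4 for the stress, synthetase and sterol lists but not for the sarcomere.

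Replicate 5 was not placed alike in all programmes. Among genes whose sets did not overlap, replicate 5 was the member of its set nearest to replicates 1 and 2 in 33 of 36 stress genes, 16 of 17 synthetase genes and 22 of 23 sterol genes. Over all 6028 such genes this was so in 2522 (41.8%), and in 12 of 42 sarcomere genes and 2 of 23 coupling genes. In the stress and sterol lists replicate 5 thus mostly lay between replicates 1 and 2 and replicates 3 and 4, and in the sarcomere list mostly not. The sets were chosen on these libraries, so this is a description too.

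Muscle markers were present in every library. The 9 skeletal muscle markers were all tested, 2 were separated, and they summed to 15507.5 and 16269.8 CPM in replicates 1 and 2 and 12069, 12205 and 11225 CPM in the others. Of 10 adipocyte markers 3 were tested, summing to 36.1 and 38.1 against 46.5 to 49.4 CPM, with Lpl at 8.63 and 9.10 against 13.8, 12.01 and 15.9 CPM and Cebpa at 17.9 and 20.5 against 22.5, 27.2 and 26.9 CPM, while Adipoq, Fabp4, Plin1, Cidec and Retn had no count in any day 6 library. Of 10 osteoblast markers 5 were tested, summing to 708 to 731 against 646 to 793 CPM, nearly all of it Spp1 at 682 and 660.1 against 592, 619 and 738 CPM, with Bglap2 at 3.97 and 3.81 against 7.04, 6.79 and 4.04 CPM, and Ibsp and Dlx5 had no count. Of 7 chondrocyte markers 2 were tested, summing to 70.5 and 79.0 against 60.2 to 64.2 CPM, with Sox9 at 70.1 and 78.6 against 59.6, 60.5 and 63.4 CPM, and Acan and Col2a1 had no count. Of 6 macrophage markers 1 was tested, Cd68 at 1.18 and 0.794 against 1.46, 1.46 and 1.09 CPM, and Tyrobp had no count. The part of these levels in the differences was not tested.

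Depth and composition also moved with the sets. Replicates 1 and 2 were sequenced more deeply, with 20509280 and 19077321 counts against 15367909 to 16570169, and 13482 and 13310 genes reached 10 counts against 13064 to 13102. Thinned to the smallest library, 601 and 510 genes were separated and the medians were -1.17 for amino acid stress, 0.52 for sterol synthesis, 0.32 for the sarcomere and 0.29 for replication. Counts at Yam1, a noncoding RNA, took 4.35% and 4.45% of the libraries against 3.96% to 4.16%. All noncoding genes, Yam1 included, took 6.46% and 6.53% against 5.81% to 5.97%. Whether the reads counted at Yam1 came from its own transcript was not tested. Mitochondrial genes took 3.31% and 2.87% against 2.77% to 3.01%, with overlap. The part of composition in the results was not tested. Of the genes separated in each direction, 105 and 65 reached 10 counts only in their higher set. Where the higher set reached 10 CPM, 368 of 9212 genes were separated (3.99%).

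The libraries before differentiation carry the same numbers and took no part in the choice of sets, so replicates 1 and 2 could be tested against 3 to 5 there. By edgeR's quasi-likelihood test with Benjamini-Hochberg adjustment, 9 of 13022 genes passed an adjusted p of 0.05 (0.0691%), all with the higher level in replicates 1 and 2, and 1481 had an unadjusted p under 0.05. DESeq2 called 21. The 9 were mt-Nd4, mt-Co1, Cenpe, Nktr, Casp8ap2, Pnisr, Spaca6, BC005561 and 2610203C20Rik, at 1.17-fold for mt-Nd4, a complex I subunit, to 1.61-fold for BC005561. Leaving out a library changed this count to 0 without replicate 1, 28 without replicate 2, 0 without replicate 4 and 37 without replicate 5. On day 6 none of the 9 was separated.

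None of the 1163 genes separated on day 6 was among the 9. Of these 1163, 777 were tested before differentiation, 67 had an unadjusted p under 0.05, and 373 had the same sign as on day 6. The 4 list medians before differentiation were -0.03 for amino acid stress, -0.02 for sterol synthesis, 0.08 for the sarcomere and -0.0044 for replication, with 0 genes called in each. Without overlap and at 1.5-fold or more, 399 genes were separated before differentiation (3.06%). Where the higher set reached 10 CPM, 2 of 9040 genes were (0.0221%), and 368 of 9212 on day 6. The day 6 sets were chosen on their own values and the sets before differentiation by number alone, so these counts are not like measures. Whether a number ties a library before differentiation to one on day 6 is not given in the labels, so the libraries were not paired.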

How the data were processed

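Messenger RNA of C2C12 cells was sequenced in 10 libraries. Per the labels and methods, the authors trimmed paired-end reads (Trimmomatic), aligned them to build mm10 (STAR 2.5) and summed reads with a unique position into gene counts (HTSeq 0.6.1). The day of differentiation is from the study's text. The strand setting and annotation release are not given in the sources used here. The deposited table held raw counts and FPKM, which the authors computed from the counts, gene length and library total, as was checked on the table. FPKM served only for this check. The table had 0 sample columns left unused, and 27 gene names stored as dates were replaced through their gene identifiers.

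The sets were chosen on the first component of the day 6 libraries, and the gene lists with earlier results of these data known. Genes with 10 or more counts in at least 2 of 5 libraries were scaled by TMM and fitted with edgeR 4.0.16 in R 4.3.3. A gene was counted as separated where the sets did not overlap in CPM and differed by at least 1.5-fold. The before-differentiation libraries were tested with edgeR's quasi-likelihood test, Benjamini-Hochberg adjustment and a threshold of 0.05, with DESeq2 1.42.0 as an alternative. Where the labels name no separate cultures, p-values measure only the spread between these libraries, which may be technical. The fit was tested on simulated data. CPM compares a gene between libraries, not genes with each other per length.

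Genes were named by rule. These were the 8 protein-coding genes with the largest log2 difference in each direction among those of at least 10 CPM in the higher set with no overlap. From each of the 4 main lists came the 6 largest differences of at least 5 CPM and the 2 most abundant genes, and from each other list the largest and the most abundant. Other genes were named after their values were seen. Some members of the lists, counted in them, are not reported here by name. Alternatives were other scalings, filters, fold limit and fit, thinned counts, and leaving out each library.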

Additional observations from a re-analysis of the deposited data

Results flagged for a closer look

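Across 96 named genes and 16 library values, a single day 6 library stood far from the other 4 on 2 occasions, by a gap of more than 0.71 of the whole range. Chance marks about 1 in 20 groups in this way. Rps29, a ribosomal protein of the small subunit, was at 58.4 CPM in replicate 1, against 33.1 to 39.9 CPM in the others. The share of counts at Lars2, the mitochondrial leucyl-tRNA synthetase, was 0.466% in replicate 1, against 0.357% to 0.383% in the others. Whether the reads counted at Lars2 came from its messenger was not tested.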

How the results depend on the processing

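The counts of separated genes, 637 and 526, became 1198 and 940 of 20520 genes with no filter on low counts, and 256 and 198 at a 2-fold limit. Leaving out 1 library gave 682 to 818 and 590 to 718, since fewer libraries make overlap rarer. Of the 1163 genes separated in the main fit, 920, 918, 1036, 1022 and 1067 remained so without replicates 1 to 5 in turn. The medians of the stress, sterol and replication lists moved by less than the spread between replicates. The sterol median still ranged from 0.46, without replicate 3, to 0.62, without replicate 5. That of the sarcomere ranged from 0.29, without replicate 5, to 0.36. The count of 9 genes before differentiation was 110 with no filter, 21 with DESeq2, and 0 to 37 when leaving out a library. For these the cause was not tested. Of the 96 named genes, 92 kept their direction under all 12 alternatives. The other 4, Csf1, Slc38a2, Spp1 and Top2a, had overlapping sets and changed sign under at least 1. Of the 1152 values, 35 moved by more than the spread between replicates. Where replicate 1 or 2 was left out, the lone library of the set was assumed to vary like the others. No paired analysis was possible because the sets compared hold different replicate numbers. Depth limits the low genes, where a few counts decide a fold.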
